A study of Macaca mulatta with 7 samples.

Results

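The genes described here are 10 lysosomal genes of the rhesus monkey (Macaca mulatta): GPNMB, the cathepsins CTSD, CTSB, CTSL and CTSZ, the lipid and cholesterol genes LIPA, NPC1 and NPC2, the membrane protein gene LAMP2, and the chitinase gene CHIT1. They were chosen by name, with earlier results of these data known, and matched by symbol among 35432 gene identifiers, which gave 28966 symbols or identifiers after summing. All 10 were found. Because the levels of several members in injured cord took part in that choice, the values below are a description and no test supports them.

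Single-nucleus RNA-seq, in which each RNA molecule caught from a nucleus carries its own tag (a unique molecular identifier, UMI) and is counted once, was carried out on 7 libraries of spinal cord, 1 per group. Cervical, thoracic and lumbar cord of intact monkeys, aged 5 years, gave 3 libraries, which by the study's methods came from 1 uninjured animal. The other 4 were lumbar cord of monkeys whose thoracic cord had been completely injured, at 7 days (dpi, days post injury), 14 days, 30 days and 6 months (mpi, months post injury), with ages of 7, 7, 6 and 6 years in this order. By the study's methods all animals were female, a piece of thoracic cord was cut out, the lumbar tissue lay far from the lesion, and each time point was 1 animal. Time after injury, animal, age and library preparation therefore coincided and cannot be told apart. With 1 library per group there is no replicate check, every interval below is a 95% interval for counting error only, and the range of the 3 intact libraries holds no spread between animals.

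Lysosomes are acidic organelles that break down material taken up by a cell or delivered by autophagy. Proteins are cut there by cathepsins, cholesteryl esters are split by the lipase encoded by LIPA, and the freed cholesterol leaves through NPC2 and NPC1. In the nervous system microglia clear myelin and dead cells by this route, and GPNMB and CHIT1 are known as genes of lipid-laden macrophages. MITF and TFEB are transcription factors known to drive lysosomal genes.

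The matrices held 6134 to 12015 barcodes and 45079131 to 150987900 UMIs, and 5934 to 11581 barcodes per library passed the filter. Any pair of libraries shared at most 33 barcodes, 0.344% of the smaller library. Clusters named from marker genes gave 1652, 2527 and 2084 microglia/macrophage-like nuclei in intact cervical, thoracic and lumbar cord, and 3470, 4600, 3853 and 2310 at 7, 14 and 30 dpi and 6 mpi. Their median depth lay between 2396 and 5813 UMIs per nucleus. All 10 microglial markers had UMIs in every library, but several were lower after injury and others were higher at some times. CSF1R, the receptor on which microglia depend, was at 647 to 705 CPM (the usual unit of counts scaled to the total of the class) in intact cord and at 320 to 429 after injury, and MRC1 went from 460 to 734 down to 46.8 to 107. C3 was at 466 to 552 CPM in intact cord and at 897, 857, 487 and 604 in order of time. DOCK8 was at 1322 to 1467 CPM and then at 1934, 1697, 1494 and 1087, and PTPRC at 810 to 871 and then at 782, 934, 959 and 867. Different clusters held most of the class in different libraries: cluster 1 held 84.7% to 94% in intact cord, cluster 7 held 78.6% at 7 dpi, cluster 4 held 88.0% at 14 dpi, clusters 11 and 12 held 60.5% and 32.9% at 30 dpi, and cluster 15 held 51.2% with cluster 7 at 39.7% at 6 mpi.

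Levels are given as CPM, that is the UMIs of a gene summed over a class of nuclei and scaled to the UMI total of that class. A log2 ratio is the log2 of the CPM in an injured library over that in intact lumbar cord. A member was called higher or lower where this ratio, with 1 CPM added to both levels, passed 2-fold and the CPM also lay outside all 3 intact libraries. The log2 ratios of genes that are no members, and medians over genes in comparisons with intact lumbar cord, are given with this 1 CPM added, which makes them smaller for low genes. Less RNA per nucleus and fewer expressing nuclei cannot be told apart in CPM, so shares of nuclei are given as well.

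GPNMB, CHIT1 and CTSD were the members whose levels stood furthest above intact lumbar cord, and they did so in all 4 injured libraries. Against the highest intact library instead, CHIT1 at 7 dpi had a log2 ratio of 0.61, below those of LIPA (1.00) and CTSZ (0.73). GPNMB, which encodes a glycoprotein of lysosomes and the cell surface, lies on the minus strand of Mmul_10 chr3:91829663-91903103. CHIT1, which encodes the chitin-cleaving enzyme chitotriosidase of macrophages, lies on the minus strand of chr1:60716866-60729929. The 250 bases before the annotated start of each gene are shown because these are the members with the largest ratios at 6 mpi, and because the promoters were searched for the binding letters of MITF and TFEB described further below. They run 5′ to 3′ on the gene's strand, at chr3:91903104-91903353 and chr1:60729930-60730179, and are in lower case throughout since neither holds a motif searched.
GPNMB: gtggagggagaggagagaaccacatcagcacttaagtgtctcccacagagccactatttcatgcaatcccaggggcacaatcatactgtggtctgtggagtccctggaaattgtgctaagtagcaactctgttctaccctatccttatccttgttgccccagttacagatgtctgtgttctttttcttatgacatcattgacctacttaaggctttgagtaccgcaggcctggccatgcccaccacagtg
CHIT1: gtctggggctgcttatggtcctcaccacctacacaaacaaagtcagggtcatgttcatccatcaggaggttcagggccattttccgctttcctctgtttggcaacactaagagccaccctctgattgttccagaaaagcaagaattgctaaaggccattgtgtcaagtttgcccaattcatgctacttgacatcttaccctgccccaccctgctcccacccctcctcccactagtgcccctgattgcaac

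Of the proteases, CTSD stood furthest above intact cord in microglia/macrophage-like nuclei. CTSD, the aspartic protease cathepsin D (minus strand, chr14:1831927-1867517), was at 10.2, 11.9 and 13.8 CPM in intact cervical, thoracic and lumbar cord. After injury it was at 47.2 (43.8 to 50.7), 41.9 (39.2 to 44.8), 110 (106 to 114) and 402 CPM (386 to 418) in order of time. All injured libraries lay above all intact ones, and 7 and 14 dpi had overlapping intervals. The log2 ratios were 1.77, 1.60, 3.0 and 4.86, the last with an interval of 4.58 to 5.17.

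CTSB, the cysteine protease cathepsin B, moved little against its spread in intact cord. It was at 441, 360 and 529 CPM in intact cord and at 590, 447, 760 and 727 CPM at 7, 14 and 30 dpi and 6 mpi. The library at 14 dpi lay inside the intact range and the others above it, with log2 ratios of 0.16, -0.24, 0.52 and 0.46. CTSL, cathepsin L, was at 4.62, 4.02 and 5.87 CPM in intact cord and at 5.05, 6.95, 13.2 and 16.7 CPM after injury. Its intervals at 7 and 14 dpi overlapped that of intact lumbar cord, whereas those at 30 dpi (11.8 to 14.7) and 6 mpi (13.7 to 20.2) did not. The CTSL gene overlaps LOC100425245 on the same strand, so its UMIs may hold those of this neighbour.

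CTSZ, the exopeptidase cathepsin Z, had another course. It was at 46.7, 38.8 and 46.4 CPM in intact cord and at 77.2, 87.8, 79.4 and 72.0 CPM in the injured libraries. Its log2 ratios were 0.73, 0.92, 0.77 and 0.63. Every injured library lay above the intact range, and no CTSZ ratio reached 2-fold. Its highest level was thus at 14 dpi, where CTSD had its lowest level among the injured libraries.

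Among the lipid and cholesterol genes, LIPA, the lysosomal acid lipase, was at 55.6, 60.9 and 56.1 CPM in intact cord. It was at 122 CPM (117 to 128), 90.7 (86.7 to 94.9), 173 (168 to 178) and 113 (105 to 122) after injury. All 4 lay above intact cord without a steady rise, and the log2 ratios were 1.12, 0.69, 1.62 and 1.02. The value at 6 mpi was just past 2-fold, and the call there was lost with median-of-ratios size factors, the mean of the intact libraries as baseline, doublets kept, a pseudocount of 5, a 4-fold rule, or clusters 12 and 15 left out.

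NPC1, the membrane protein that exports cholesterol, stayed near its intact levels of 95.7, 92.1 and 97.2 CPM at 7 dpi (92.9) and 14 dpi (98.3). It was at 152 CPM (148 to 157) at 30 dpi and 146 (136 to 156) at 6 mpi, log2 ratios of 0.65 and 0.58. NPC2, the soluble protein that hands cholesterol to NPC1, was at 35.4, 37.7 and 34.7 CPM in intact cord and at 36.5, 49.98, 48.1 and 39.2 after injury. The levels at 7 dpi and 6 mpi had intervals that overlapped intact lumbar cord. NPC1 shares its locus with RMC1 and NPC2 with LOC114679598 on the other strand, and the strand setting of the counting is not given in the sources used here.

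LAMP2, a major protein of the lysosomal membrane, was at 50.7, 44.9 and 43.8 CPM in intact cord and at 41.1, 51.5, 55.4 and 64.8 CPM after injury. Of these, 6 mpi alone had an interval (58.6 to 71.4) clear of those of all intact libraries (45.6 to 56.2 at the highest).

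GPNMB and CHIT1 were close to 0 in most intact nuclei. GPNMB was at 1.54, 19.7 and 4.50 CPM in intact cervical, thoracic and lumbar cord and at 66.0, 153, 492 and 1503 CPM at 7, 14 and 30 dpi and 6 mpi, with log2 ratios of 3.87, 5.08, 6.77 and 8.38 (7.89 to 8.92 at 6 mpi). CHIT1 was at 0.42, 4.2 and 1.09 CPM in intact cord and at 6.39, 13.7, 209 and 631 CPM in the injured libraries, with ratios of 2.55, 3.65, 7.58 and 9.18 (8.20 to 10.39 at 6 mpi). Each injured library lay above the one before it for both genes. The course of CHIT1 was the steeper between 14 and 30 dpi, where its interval moved from 12.2 to 15.4 up to 204 to 215 CPM.

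The intact thoracic library held more of both genes than the other intact segments, and few nuclei carried them. Its 220 GPNMB UMIs came from 30 nuclei, 1 of which held 50 (22.7%), and its 47 CHIT1 UMIs came from 10 nuclei, 1 of which held 29 (61.7%). Without the richest nucleus the levels were 15.2 CPM for GPNMB and 1.61 CPM for CHIT1. In intact lumbar cord, the baseline of the ratios, 33 GPNMB UMIs lay in 7 nuclei and 8 CHIT1 UMIs in 4. After injury the number of nuclei with a GPNMB UMI was 289, 596, 1422 and 1291.

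**Figure D1:**
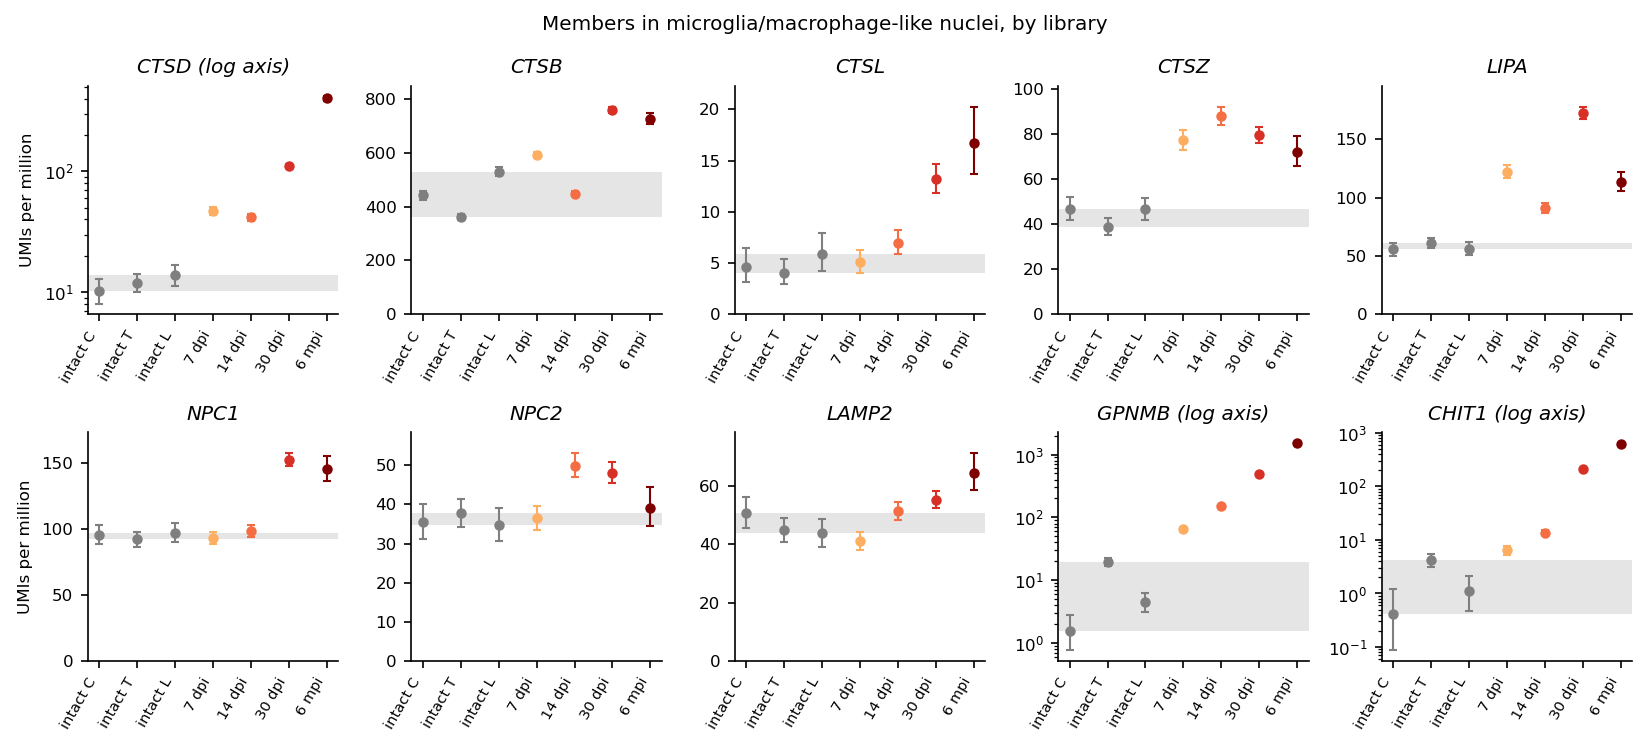
Level in CPM of each member in microglia/macrophage-like nuclei of the 7 libraries, with exact Poisson 95% intervals and the range of the 3 intact libraries (C, T and L for cervical, thoracic and lumbar) as a grey band. GPNMB, CHIT1 and CTSD, on log axes, lie above the band at all 4 times after injury and reach 1503, 631 and 402 at 6 mpi, whereas CTSB, LAMP2, NPC1 and NPC2 lie within or near it at 7 dpi.

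Counted together, 4, 3, 5 and 5 of the 10 members were called higher at 7, 14 and 30 dpi and 6 mpi. Of all 10331 genes tested, those with a mean of at least 5 CPM over the libraries, 7.54%, 5.36%, 7.47% and 11.4% were called higher in the same libraries. GPNMB, CTSD and CHIT1 were called in all 4, which held for 2.13% of genes, and since the members were chosen on such values nothing is read from these counts. LIPA was called at 7 dpi, 30 dpi and 6 mpi, and CTSL at 30 dpi and 6 mpi. With a pseudocount of 5 CHIT1 was not called at 7 dpi and CTSL at neither time. Under a 4-fold rule CTSD was not called at 7 and 14 dpi, CHIT1 at 7 dpi, and LIPA and CTSL at any time. LIPA and CTSL were also not called at any time without clusters 12 and 15, and CTSL was not tested where a mean of 20 CPM was asked for. No member was called lower, against 4.92%, 3.78%, 5.28% and 4.35% of genes. All 10 passed the filter on low values, CHIT1 and CTSL through the injured libraries where they were high. In intact cord alone CTSL, at 4.02 to 5.87 CPM, would not have passed, and GPNMB would have passed through the thoracic library (19.7 CPM). The median log2 ratio over all 10 members was 0.44, 0.60, 0.90 and 0.81, and over all genes tested 0.05, -0.08, -0.05 and 0.18. At 6 mpi the scaling mattered: median-of-ratios size factors moved the median of all genes from 0.18 to -0.03 and the share of calls that were higher from 72.3% to 56.0%.

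Markers of other cells moved within the class as well. The summed level of 5 perivascular macrophage markers was 547 to 957 CPM in intact cord and 194 to 555 after injury. These markers did not move together. CD163, which made up most of the sum in intact cord, was at 417 to 809 CPM there and at 109, 284, 148 and 73.3 after injury, and LYVE1 was at 3.22 to 15.8 and then at 0.161 to 0.474. F13A1 was at 50.6 to 61.2 CPM and then at 82.3 to 211, and SIGLEC1 at 0.682 to 2.41 and then at 19.9, 15.1, 15.6 and 16.7, both above intact cord in all 4 injured libraries. STAB1 was at 60.4 to 80.9 CPM and then at 99.0, 55.8, 23.6 and 21.5. The summed level of 7 neutrophil and monocyte markers was 29.7 to 40.1 CPM in intact cord and 104, 28.4, 122 and 14.3 after injury, with FCN1 at 0 in all libraries but 7 dpi. VCAN, which also leads the OPC-like cluster 6, gave 80.8 CPM of this sum at 7 dpi and FN1 77.5 at 30 dpi. The summed level of 5 melanocyte markers, another cell type known to express GPNMB, was 7.23 to 9.67 CPM in intact cord and 3.77 to 6.56 after injury, with TYRP1 at 0 throughout, while MLANA in this list was at 1.25 to 1.96 and then at 1.85 to 3.399. At 6 mpi, where GPNMB, CTSD and CHIT1 were highest, the perivascular and the neutrophil and monocyte sums were at their lowest, although SIGLEC1 and F13A1 were above their intact levels. Their part in the members' levels was not tested.

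The share of nuclei with a UMI was compared after each nucleus had been thinned to 1000 UMIs, which left out none. GPNMB was then seen in 0.0605%, 0.831% and 0.240% of microglia/macrophage-like nuclei of intact cord and in 3.89%, 6.72%, 20.3% and 47.9% after injury. CHIT1 was seen in 0.0605%, 0.158% and 0.0960% and then in 0.259%, 0.848%, 10.8% and 30.8%, and its interval at 7 dpi (0.119% to 0.492%) overlapped those of all intact libraries. CTSD was seen in 0.787%, 1.15% and 1.49% and then in 4.55%, 3.83%, 9.5% and 27.0%.

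Without thinning the shares in the 4 injured libraries were 8.33%, 13%, 36.9% and 55.9% for GPNMB, 1.1%, 2.11%, 24.9% and 42.8% for CHIT1, and 15.5%, 13%, 33.1% and 44.9% for CTSD. Neuron-like nuclei, in which GPNMB and CHIT1 UMIs may be free RNA, had 0.943% and 1.30% at 6 mpi after thinning, from a median depth of 21576 UMIs against 2396 in microglia/macrophage-like nuclei. In both classes the thinned share was highest at 6 mpi.

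A UMI of at least 1 of the 10 members was seen after thinning in 50.5%, 46.4% and 53.6% of microglia/macrophage-like nuclei of intact cord and in 58.3%, 53.4%, 68.7% and 80.8% after injury. At least 3 different members were seen in 1.09%, 1.23% and 2.02%, and then in 3.83%, 4.28%, 17% and 35.6%. The library at 14 dpi was inside the intact range for nuclei with any member and above it for nuclei with at least 3.

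**Figure D2:**
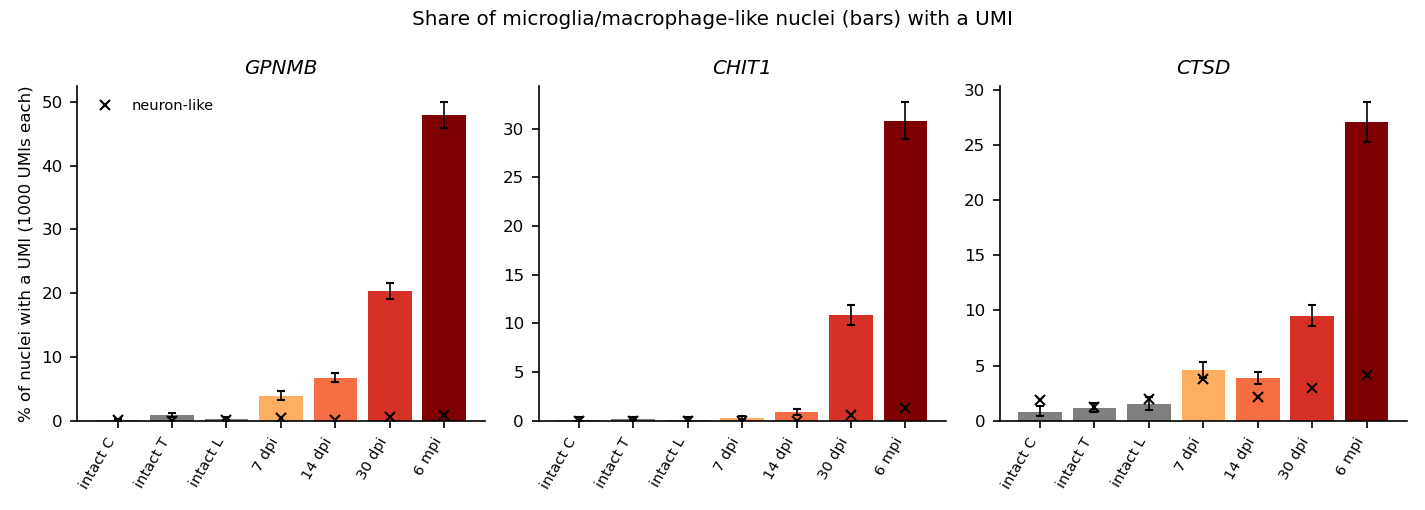
Percent of microglia/macrophage-like nuclei (bars, exact 95% intervals) and neuron-like nuclei (crosses) with a UMI of GPNMB, CHIT1 or CTSD in each library, after thinning every nucleus to 1000 UMIs. The GPNMB bars go from at most 0.831% in intact cord to 47.9% at 6 mpi, and the CTSD crosses show that neuron-like nuclei also held this gene, up to 4.13%.

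The levels were unequal within the class. Clusters 12 and 15, whose leading genes include GPNMB and CHIT1, held 7.49%, 8.59%, 33.2% and 53.9% of the class after injury. Their marker scores as microglia were low, 0.273 and 0.197, and 97.2% of cluster 15 came from the 6 mpi library, so it cannot be told apart from that library. Levels of several members are therefore given next inside and outside these clusters, and as levels of a cluster they are a description. Most later values, among them those of single pathway genes, are for the whole class only.

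In cluster 12, the one seen in several libraries, CTSD was at 191, 190, 226 and 301 CPM at 7, 14 and 30 dpi and 6 mpi, and LIPA at 306, 283, 286 and 386. CTSB was at 1696, 1108, 1166 and 1093 CPM, and GPNMB at 601, 1121, 1168 and 768. CHIT1 was at 48.0, 121, 512 and 1097 CPM in the same nuclei. Thus CTSD, LIPA, CTSB and GPNMB differed by less than 2-fold among the libraries of this cluster. CHIT1 was over 10 times as high at 6 mpi as at 7 dpi. The cluster held 254, 389, 1268 and 61 nuclei in these libraries, and its CTSD level at 6 mpi had an interval of 232 to 385. Cluster 15 at 6 mpi had 2736 CPM of GPNMB, 1089 of CHIT1, 696 of CTSD, 896 of CTSB and 141 of LIPA.

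Outside these clusters the largest cluster of each library still had more CTSD than intact cord. Cluster 1 had 9.19 to 12.1 CPM of CTSD in the intact libraries. It was at 32.9 in cluster 7 at 7 dpi, 22.2 in cluster 4 at 14 dpi, 31.9 in cluster 11 at 30 dpi and 56.7 in cluster 7 at 6 mpi. LIPA in the same places was at 52.2 to 56.2 in intact cord and at 108, 65.8, 99.9 and 57.5, so at 6 mpi its interval (48.2 to 68.2) covered the intact levels. GPNMB was at 13.5, 30.6, 47.8 and 74.1 CPM there, and CHIT1 at 1.24, 0.730, 11.6 and 46.2. Other classes also held both genes at 6 mpi. GPNMB was at 15.8, 49.4, 61.4 and 14.7 CPM in oligodendrocyte-like, OPC-like, astrocyte-like and neuron-like nuclei. CHIT1 was at 19.6, 23.6, 40.0 and 10.6 CPM in the same order. The part of free RNA in the levels outside clusters 12 and 15 was not tested.

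With clusters 12 and 15 left out of the class altogether, GPNMB, CTSD and CHIT1 were still called higher at 30 dpi and 6 mpi, GPNMB and CTSD at 7 dpi, and GPNMB alone at 14 dpi. The log2 ratio of CTSB was then -0.079 at 7 dpi, -0.069 at 30 dpi and -0.076 at 6 mpi, and that of NPC1 was -0.060 at 30 dpi. The higher levels of CTSB and NPC1 in the class were thus seen with these clusters included. The part of free RNA in the GPNMB, CTSD and CHIT1 levels without these clusters was not tested.

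Members were also compared between nuclei with and without a GPNMB UMI inside each injured library, which holds animal and library fixed. CHIT1 had the largest ratios, with 53.3 against 1.28 CPM at 7 dpi, 73.6 against 1.79 at 14 dpi, 448 against 18.8 at 30 dpi and 1021 against 67.2 at 6 mpi. The log2 ratios were 5.38, 5.36, 4.58 and 3.93. CTSD followed with 140 against 37.1 CPM, 142 against 21.9, 203 against 35.8 and 631 against 70.3, ratios of 1.91, 2.7, 2.5 and 3.16.

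CTSB had ratios of 1.37, 1.41, 1.09 and 0.83, LIPA of 1.11, 1.78, 1.30 and 1.13, and NPC1 of 1.1, 1.19, 1.21 and 0.98, all with intervals above 0. Those of CTSL were 1.43, 1.19, 1.74 and 1.82. LAMP2 and NPC2 differed less, with LAMP2 at 0.34, 0.36, 0.44 and 0.32 and NPC2 at 0.21, 0.30, 0.83 and 0.56, and both had intervals that held 0 at 7 dpi. Without clusters 12 and 15 the ratio of CTSL at 30 dpi was -0.12, that of LAMP2 at 6 mpi -0.014 and that of NPC2 at 6 mpi -0.057.

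CTSZ was the exception among the cathepsins. Its ratios were 0.11, -0.11 and 0.01 at 7, 14 and 30 dpi, all with intervals that held 0, and -0.54 (-0.82 to -0.27) at 6 mpi, where nuclei without a GPNMB UMI had 88.4 CPM and nuclei with one had 60.6.

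The median ratio of the 9 other members was 1.11, 1.19, 1.21 and 0.98, beside -0.70, -0.84, -1.13 and -1.64 for 9 microglial reference genes. Nuclei with a GPNMB UMI were deeper, with a median of 4969 against 4156 UMIs at 7 dpi, 5178 against 4000 at 14 dpi, 6928 against 5261 at 30 dpi and 2506 against 2291 at 6 mpi. The part of depth was not tested beyond thinning, under which the median was 1.29 at 7 dpi and 1.04 at 30 dpi. Without clusters 12 and 15 the medians were 0.59, 0.74, 0.31 and 0.26.

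After thinning, CHIT1 was seen in 5.19%, 8.74%, 35.6% and 53.3% of nuclei with a GPNMB UMI and in 0.0600%, 0.280%, 4.56% and 10.1% of the others. Conversely 7 of 9 CHIT1 nuclei at 7 dpi (77.8%, 40.0% to 97.2%), 27 of 39 at 14 dpi (69.2%, 52.4% to 83.0%), 278 of 418 at 30 dpi (66.5%, 61.8% to 71.0%) and 590 of 712 at 6 mpi (82.9%, 79.9% to 85.6%) had a GPNMB UMI. CTSD was seen in 14.1%, 18.8%, 22.8% and 46% of GPNMB nuclei and in 4.17%, 2.75%, 6.12% and 9.56% of the others.

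**Figure D3:**
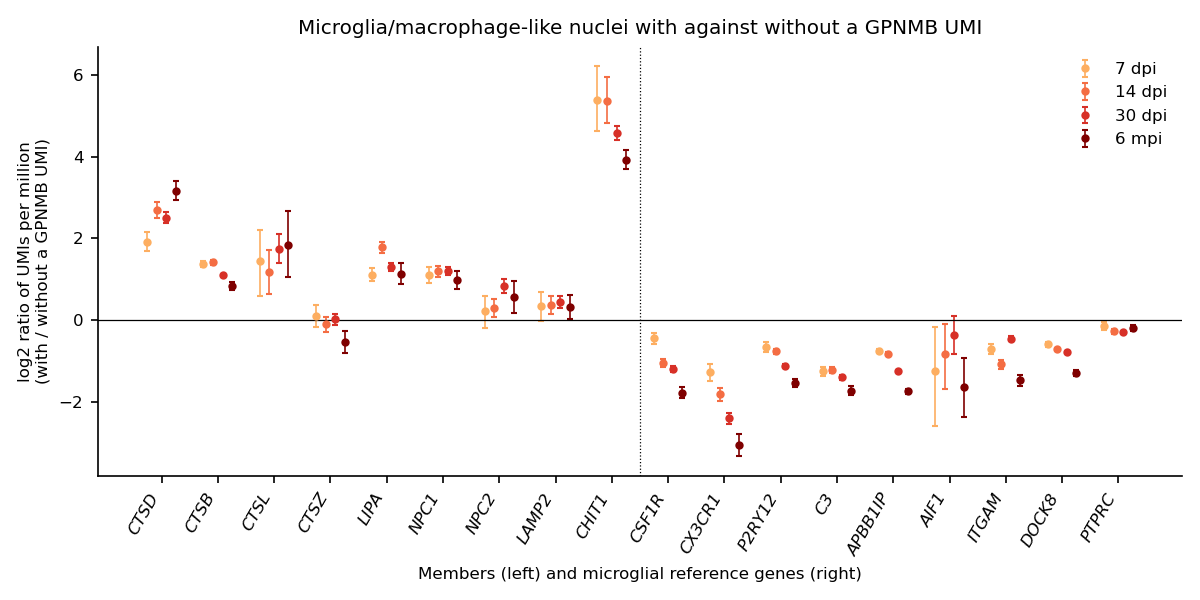
The log2 ratio of CPM between microglia/macrophage-like nuclei with and without a GPNMB UMI, for the 9 other members (left of the dotted line) and 9 microglial reference genes (right), with exact 95% intervals, in each injured library. CHIT1 lies between 3.93 and 5.38 and CTSD between 1.91 and 3.16, CTSZ lies at or under 0.11, and the reference genes lie below 0.

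The members differed in which of the 5 larger classes held them in intact cord. CTSB, CTSZ and NPC2 were highest in microglia/macrophage-like nuclei, at 360 to 529, 38.8 to 46.7 and 34.7 to 37.7 CPM. LAMP2 and LIPA were highest in oligodendrocyte-like nuclei, the myelin-forming cells, at 257 to 289 and 172 to 191 CPM. CTSD was highest in OPC-like nuclei, the precursors of oligodendrocytes, at 35.2 to 40.1 CPM, and lowest in oligodendrocyte-like nuclei at 7.33 to 9.80. CTSL was at 10.9 to 13 CPM in neuron-like nuclei and at 4.02 to 5.87 in microglia/macrophage-like ones, which places it higher in neurons in every intact library.

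**Figure D4:**
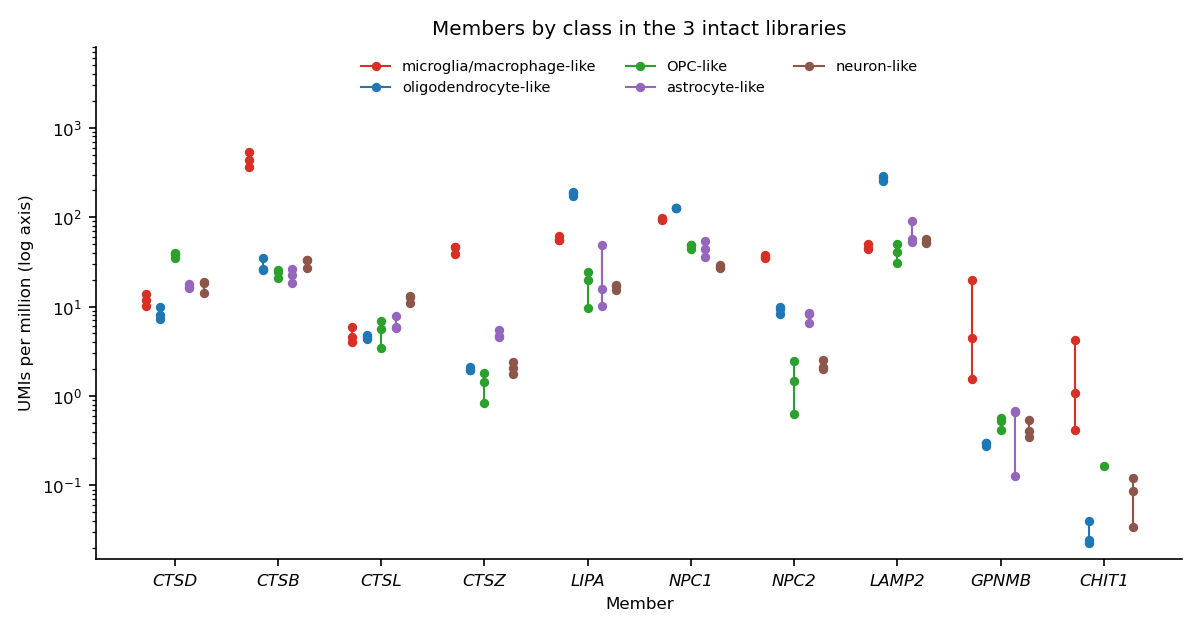
Level in CPM (log axis) of each member in 5 classes of nuclei, with 1 point for each of the 3 intact libraries joined by a line, and values of 0 not drawn. LAMP2 and LIPA are highest in oligodendrocyte-like nuclei, CTSD in OPC-like nuclei and CTSB, CTSZ and NPC2 in microglia/macrophage-like nuclei.

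After injury CTSD was higher in several classes. In oligodendrocyte-like nuclei it was at 8.05, 7.33 and 9.80 CPM in intact cord and at 32.4, 16.9, 24.3 and 31.5 CPM at 7, 14 and 30 dpi and 6 mpi. The log2 ratios were 1.73, 0.79, 1.31 and 1.68. GPNMB, CTSZ and CHIT1 had a mean under 5 CPM in this class and were not tested for calls. Of the 7 members tested there CTSD alone was called higher, at 7 dpi, 30 dpi and 6 mpi. Of all genes tested 4.82%, 2.29% and 4.74% were called higher in these libraries. CTSD in oligodendrocyte-like nuclei thus went in the order 7 dpi, 6 mpi, 30 dpi and 14 dpi, the first pair with overlapping intervals. It did not have the large step of microglia/macrophage-like nuclei at 6 mpi. These levels were 68.7%, 40.4%, 22.1% and 7.84% of the microglia/macrophage-like CPM, where 9 microglial reference genes had medians of 0.647%, 0.930%, 0.546% and 0.990% and reached 13.8%, 8.42%, 11.04% and 9.42%. The value at 6 mpi thus lay within the range of the reference genes, and the part of free RNA in it was not tested.

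In neuron-like nuclei, where 6 of the 10 members were tested, CTSD was at 18.2, 14.3 and 18.9 CPM in intact cord. It was at 24.9, 20.9, 26.3 and 39.9 after injury, and was called at 6 mpi, with 1.47% of genes, at a ratio of 1.08 (0.96 to 1.20). OPC-like nuclei stayed at 36.2, 35.8 and 37.2 CPM at 7, 14 and 30 dpi and had 60.2 (45.4 to 78.1) at 6 mpi. Astrocyte-like nuclei, of which the injured libraries held 98 to 254, went from 16.0 to 18.0 CPM in intact cord to 82.0 (63.3 to 105), 26.7, 43.9 and 54.3. CTSD was thus above the intact range in 4 of 4 injured libraries in all these classes but OPC-like nuclei, where it was so at 6 mpi. At 6 mpi the neuron-like, OPC-like and astrocyte-like levels were 9.93%, 14.98% and 13.5% of the microglia/macrophage-like CPM, where the reference genes reached 4.24%, 8.15% and 10.8%.

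LAMP2 in oligodendrocyte-like nuclei was at 275, 257 and 289 CPM in intact cord and at 242, 271, 275 and 326 in the injured libraries, and its log2 ratios lay between -0.25 and 0.17. LIPA there was at 185, 172 and 191 CPM and then at 214, 166, 141 and 197. At 30 dpi, where LIPA was lowest in oligodendrocyte-like nuclei (137 to 146), it was highest in microglia/macrophage-like ones, and the latter passed the former. NPC1 was at 125, 125 and 126 CPM and then at 170, 124, 164 and 137.

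NPC2 was lower in oligodendrocyte-like and astrocyte-like nuclei after injury. In oligodendrocyte-like nuclei it was at 9.83, 8.31 and 9.40 CPM in intact cord and at 5.92, 5.23, 4.64 and 5.08 in the injured libraries. The log2 ratios were -0.67 (-0.99 to -0.35), -0.85 (-1.23 to -0.48), -1.02 (-1.34 to -0.70) and -0.89 (-1.38 to -0.42). All 4 lay below the 3 intact libraries, and none was called lower, since the ratio with 1 CPM added did not pass 2-fold, while 1.76%, 2.03%, 1.8% and 2.02% of genes were called lower there. In astrocyte-like nuclei it was at 6.61 to 8.47 CPM in intact cord and at 1.26 to 3.98 after injury, from 1 to 7 UMIs per library. Neuron-like nuclei had 2.01 to 2.54 CPM of NPC2 in intact cord and 1.42 to 2.44 after injury, and OPC-like nuclei 0.625 to 2.48 and then 0.587 to 1.90, with 1 of 4 injured libraries below the intact range in each.

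**Figure D5:**
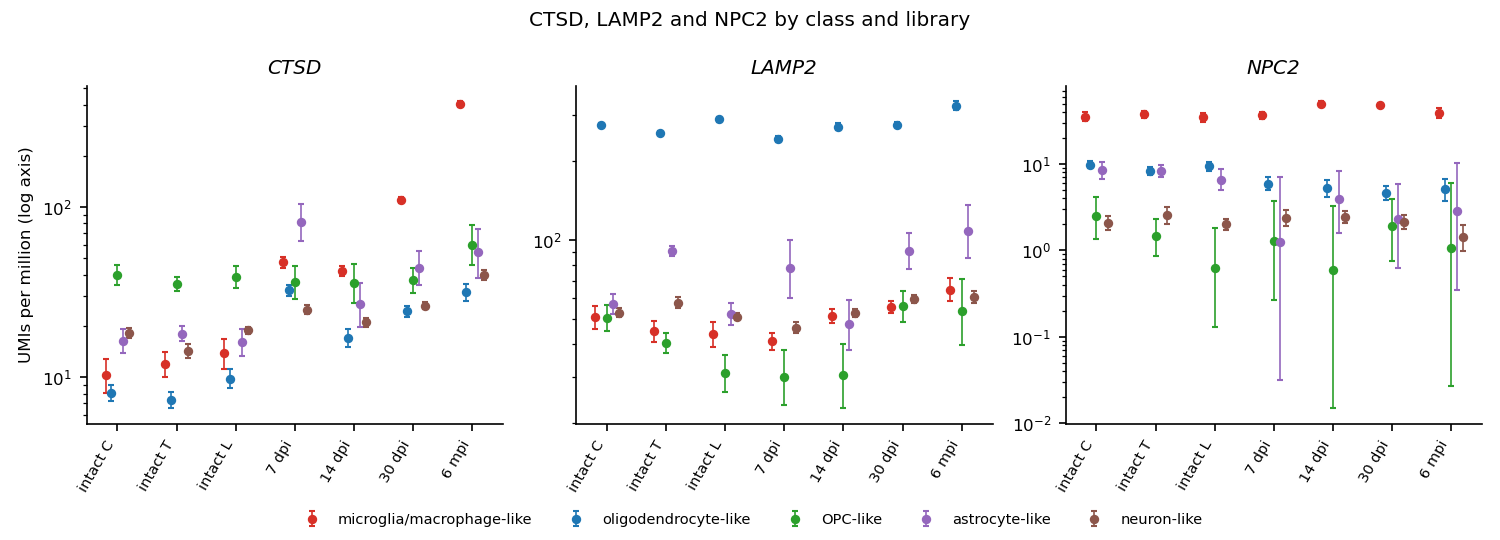
Level in CPM (log axis) of CTSD, LAMP2 and NPC2 in 5 classes of nuclei in the 7 libraries, with exact Poisson 95% intervals. CTSD is above intact cord in most classes and furthest in microglia/macrophage-like nuclei at 6 mpi (402), LAMP2 stays highest in oligodendrocyte-like nuclei (242 to 326), and NPC2 in oligodendrocyte-like nuclei goes from 8.31 to 9.83 in intact cord down to 4.64 to 5.92.

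At 6 mpi, outside microglia/macrophage-like nuclei, GPNMB and CHIT1 were at a few percent of their level there, as were other microglial genes. GPNMB in oligodendrocyte-like, OPC-like, astrocyte-like and neuron-like nuclei was at 1.05%, 3.29%, 4.09% and 0.976% of its microglia/macrophage-like CPM, and CHIT1 at 3.11%, 3.74%, 6.33% and 1.68%. The median of the 9 microglial reference genes in these classes was 0.990%, 2.32%, 3.30% and 1.37%. The reference genes ranged from 0.496% to 9.42%, 0.766% to 8.15%, 1.89% to 10.8% and 0.819% to 4.24%, so all these values lay within their ranges, mostly above their medians. The part of free RNA in them was not tested. GPNMB in OPC-like nuclei at 7 dpi was at 15.1 CPM (10.5 to 21.0) from 35 UMIs in 20 of 371 nuclei, 1 of which held 7 (20%). This level was 22.8% of its microglia/macrophage-like CPM, whereas the reference genes lay between 0.579% and 8.42%, and CHIT1 had 0 UMIs there. In neuron-like nuclei at 7 dpi GPNMB, at 3.38 CPM, was also above its reference genes as a percent, the highest of which was at 4.73%. At 14 and 30 dpi and 6 mpi GPNMB in OPC-like nuclei was at 3.52, 8.15 and 49.4 CPM, or 2.31%, 1.66% and 3.29% of its microglia/macrophage-like CPM, beside reference medians of 1.30%, 1.56% and 2.32%. In astrocyte-like nuclei it was at 5.05, 2.27, 10.8 and 61.4 CPM, from 4, 4, 19 and 43 UMIs, or 7.65%, 1.49%, 2.20% and 4.09%, beside reference medians of 2.56%, 2.01%, 3.52% and 3.30%. The call rule, which takes no account of background, was passed by GPNMB in all 4 injured libraries in OPC-like nuclei, with 0.437% of genes, and in astrocyte-like nuclei, with 1.16%. In oligodendrocyte-like and neuron-like nuclei GPNMB had a mean under 5 CPM and was not tested for calls.

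CTSB was called higher in OPC-like nuclei at 30 dpi (44.0 CPM) and 6 mpi (49.4), where 3.95% and 7.76% of genes were called, against 20.8 to 25.7 CPM in intact cord. In astrocyte-like nuclei CTSB was at 18.4 to 26.1 CPM in intact cord and at 54.3, 38.1, 53.0 and 64.3 after injury, called in all 4 with 1.16% of genes. These astrocyte-like levels were 6.98% to 9.19% of the microglia/macrophage-like CPM in the same libraries. The part of free RNA in the OPC-like and astrocyte-like levels of CTSB was not tested. Of the 9 members tested in astrocyte-like nuclei, 5, 3, 4 and 6 were called higher in order of time. Of all genes 12.5%, 4.52%, 6.26% and 10.8% were called higher there. Besides GPNMB and CTSB these were CTSD, CTSL and CTSZ at 7 dpi, and CHIT1 at 14 dpi. CTSD and CHIT1 were called at 30 dpi, and CTSD, LIPA, CHIT1 and LAMP2 at 6 mpi. These calls take no account of free RNA, and nothing is read from their number.

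The rest of the lysosomal pathway was described from 9 lists of 129 genes, of which 123 were found and 106 were tested in microglia/macrophage-like nuclei. Of these 13, 11, 22 and 34 (12.3%, 10.4%, 20.8% and 32.1%) were called higher at 7, 14 and 30 dpi and 6 mpi, beside the 7.54%, 5.36%, 7.47% and 11.4% of all genes. With clusters 12 and 15 left out 9 of 103 were called at 30 dpi and 14 at 6 mpi. At 7 dpi 1 was called lower, the cathepsin gene CTSO, from 33.9 CPM in intact lumbar cord to 16.2, and none in the other libraries. The median log2 ratio was 0.31, 0.16, 0.33 and 0.62, and at 6 mpi 0.41 under median-of-ratios scaling and 0.32 without those clusters. The lists were chosen with earlier results known, and these counts describe them without a test.

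The list of lipid hydrolases and cofactors held the largest share of calls at 6 mpi, 6 of 9 with a median ratio of 1.32. This ranking is among lists of at least 3 genes tested. The list also holds genes outside lipid breakdown. Of these the nuclease gene DNASE2 and the acid phosphatase gene ACP2 were among the calls, and the median was the ratio of ACP2. PLA2G15, a lysosomal phospholipase, was at 41.6 to 48.2 CPM in intact cord and at 135, 108, 122 and 114 after injury. DNASE2, the nuclease that clears engulfed DNA, was at 9.69 to 14.3 and then at 27.5, 31.3, 44.1 and 73.3. ASAH1, acid ceramidase, was at 49.4 to 53.0 and then at 94.5, 119, 199 and 273, and GM2A, the activator of ganglioside breakdown, at 9.11 to 10.8 and then at 10.4, 15.9, 37.1 and 71.2. PLA2G15 was thus near its later level by 7 dpi, while DNASE2, ASAH1 and GM2A were higher in each later library.

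Of 21 lysosomal membrane genes 7 were called at 6 mpi. CD68, a marker of phagocytes, was at 3.22 to 5.18 CPM in intact cord and at 16.1, 14.7, 20.9 and 20.2 after injury, and TPCN2, a lysosomal ion channel, at 0.981 to 3.04 and then at 10.6, 5.11, 13.5 and 27.8. SLC11A1, a metal transporter of phagosomes, went the other way in time, at 628, 341 and 336 CPM at 7, 14 and 30 dpi and at 66.7 at 6 mpi, within its intact range of 63.7 to 82.7. LAMP1, the partner of LAMP2, had log2 ratios of -0.02, 0.09, 0.41 and 0.16.

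Of 8 other lysosomal proteases 2 were called at 6 mpi, CTSA and TPP1. CTSA, the protective protein of other hydrolases, was at 13.4 to 15.3 CPM in intact cord and at 42.5, 29.2, 53.1 and 85.3 after injury. CTSS and CTSH, cathepsins of microglia, had log2 ratios of 0.38, 0.16, 0.09 and 0.06, and of -0.40, -0.33, -0.32 and 0.01, so the cathepsins did not move as 1 group. Of 2 cathepsin inhibitors tested 1 was called at 6 mpi, CSTB, from 3.68 CPM in intact lumbar cord to 15.4.

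Of 22 glycosidases and sulfatases 6 were called at 6 mpi, and the log2 ratios there of those called most often were 1.93 for ARSA, 1.90 for SGSH, 1.89 for GUSB and 1.60 for NAGLU. Of 14 proton pump subunits 3 were called, ATP6V1A, ATP6V1B2 and ATP6AP1, with ATP6V1B2 at 44.8 to 52.7 CPM in intact cord and at 59.1, 97.6, 106 and 104 after injury. Of 3 chitinase-family genes 1 was called, CHI3L1, which lacks the enzyme activity of CHIT1, at 0.136 to 0.981 CPM and then at 25.2, 3.42, 10.4 and 14.3. The highest level of CHI3L1 was thus at 7 dpi, where CHIT1 was lowest among the injured libraries. The study reports higher CHI3L1 in astrocytes near the lesion. It adds that in lumbar astrocytes most such genes other than GFAP rose mainly at 7 dpi and were lower later. The part of free RNA in the CHI3L1 levels given here was not tested.

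Of 11 sorting genes 3 were called at 6 mpi, IGF2R, GGA1 and GRN. IGF2R, which carries new hydrolases to lysosomes, was at 0.560 to 1.16 CPM in intact cord and at 1.28, 3.42, 8.93 and 42.9 after injury. GRN, which encodes progranulin, was at 47.1 to 52.8 and then at 107, 63.3, 117 and 231.

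Of 16 genes of transcription and nutrient sensing 5 were called at 6 mpi, MITF, FNIP2, RRAGA, RRAGC and RRAGD. MITF was at 109 to 155 CPM in intact cord and at 538, 618, 1284 and 880 after injury. Its relatives TFEB, TFE3 and TFEC had log2 ratios between -0.53 and 0.38 in every library. RRAGD, a nutrient-sensing GTPase, was at 8.12 to 11.1 CPM in intact cord and at 16.2, 28.4, 47.3 and 96.3. Over all lists the genes called higher in all 4 injured libraries were PLA2G15, DNASE2, CD68, TPCN2, MITF and CHI3L1. ASAH1, GM2A, SLC11A1, LAMP1, CTSS, CTSH, TFEB, TFE3 and TFEC were named after their values were seen.

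Windows of 300 bases, 250 before and 50 after the annotated start, were searched on both strands in 20787 protein-coding genes for CACGTG, the letters bound by TFEB and MITF, for TCACGTG, and for TCATGTG, which MITF also binds. TCACGTG is a part of the CACGTG matches. CACGTG was found in 1 of the 10 members (CTSB), in 28 of 126 genes of the pathway lists (22.2%) and in 7.72% of all windows. TCATGTG was found in none of the members, in 7.94% of the pathway windows and in 2.28% of all. A window without these letters says nothing of the factor. The start taken was the outer end of each gene's annotated span. Whether transcription begins there in these nuclei was not tested, for GPNMB, CHIT1 and CTSD as for the others.

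The genes most like GPNMB in level over the 7 libraries were ranked by Pearson's r of log2(CPM + 1) in microglia/macrophage-like nuclei. LGALS3, the galectin that marks damaged lysosomes, was first at 0.992, with 2.52, 9.20 and 5.46 CPM in intact cord and 22.7, 59.96, 148 and 260 after injury. It was followed by ZCCHC14, ANKRD6, FOXN2, TECPR1, TTC7B, ABHD18, TFCP2L1, RENBP and RIC1, the last at 0.976. Of the members CHIT1 had 0.955 (rank 59) and CTSD 0.944 (rank 103). Of the 10330 other genes 353 reached 0.9, the 7 points share library and animal, and 3 of them come from 1 animal, so the ranks are a description.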

How the data were processed

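Nuclei of rhesus monkey spinal cord were profiled on a droplet platform, 1 library per group. The authors made the files with Cell Ranger 6.0.0 per the submitters' processing notes, on the Mmul_10 genome per the study's methods, and deposited raw UMI counts per gene and barcode, which are whole numbers and not normalized. The annotation release, intron setting and strand setting are not given in the sources used here. The study's own doublet removal and integration were not rerun.

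Symbols came from the matrices, with 959 identifiers named from a reference table, and counts of the same symbol were summed. A barcode needed more than 500 genes and 1000 UMIs, with less than 10% of UMIs from mitochondrial and 5% from hemoglobin genes. The 5% with the highest Scrublet score (scanpy 1.11.5) were removed per library. From 2000 variable genes, 30 components and 20 neighbours, Leiden clusters at resolution 1 (seed 1) were named for the best of 11 marker lists. A cluster whose second class scored over 0.5 of the best, and at least 0.3, stayed unnamed. That floor was set after clusters had been seen, and without it the GPNMB-led clusters 12 and 15 would be unnamed. The members, gene lists and pathway lists were chosen with earlier results of these data known, as were the TCATGTG motif and the leaving out of those clusters.

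CPM carry exact Poisson intervals, ratios exact conditional binomial intervals and shares Clopper-Pearson intervals, which cover counting error only. No p-value was computed. Genes named were the members, in each pathway list up to 4 genes with the largest ratio at 6 mpi among those called in most libraries, any gene behind a count of 5 or fewer, and the 10 genes with the highest correlation with GPNMB. Gene positions and promoter windows are from the RefSeq annotation of Mmul_10. Free RNA was not subtracted. Alternatives covered the baseline, scaling, doublets, cluster resolution and naming, UMI minimum, thinning, low-value filter, pseudocount, fold, intact range, and nuclei with perivascular markers left out. The call rule and intervals were tested on simulated data. Scripts ran in Python 3.11.15 with leidenalg 0.10.2, igraph 0.11.9, scipy 1.17.1, matplotlib 3.10.9, anndata 0.12.19, scikit-learn 1.9.0, pandas 2.3.3 and numpy 2.4.6.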

Additional observations from a re-analysis of the deposited data

Results flagged for a closer look

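All 10 members had UMIs in barcodes that the classes above do not use, namely those that failed the filter, were removed as likely doublets or lay in unnamed or small clusters. In this set 6 members were above the highest intact library at all 4 times after injury. The share of all genes that were so was not computed, and nothing is read from this count. At 6 mpi 669 such barcodes held GPNMB at 414 CPM, CHIT1 at 167, CTSD at 150, CTSB at 240, CTSZ at 18.9 and NPC2 at 14.9, where the same set in the 3 intact libraries had at most 0.871, 0.0942, 22.0, 79.5, 8.29 and 11.6. In microglia/macrophage-like nuclei of that library the levels were 1503, 631, 402, 727, 72.0 and 39.2. The other 4 were also above intact cord at 6 mpi, LIPA at 134 against at most 113 CPM, CTSL at 15.7 against 9.42, NPC1 at 111 against 97.7 and LAMP2 at 183 against 177. Some intervals overlapped that of the highest intact library. They were NPC2 at 7 dpi (9.65 to 14.6) and 6 mpi (11.7 to 18.7) against 9.75 to 13.7, and at 6 mpi NPC1 (102 to 121) against 92.2 to 103 and LAMP2 (171 to 195) against 170 to 185. CHIT1 at 7 dpi had 3 UMIs in this set. Which cells these barcodes hold was not tested.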

How the results depend on the processing

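No paired analysis was possible because each group has 1 library. The ratios of GPNMB, CTSD and CHIT1 stayed above 0 at every time under every alternative run. Of the single levels recomputed, 324 stayed inside their interval and 71 left it. Another 5 changed sign where the reported interval held no 0. A change of sign where the interval held 0 is counted among the 324 or the 71. With clusters 12 and 15 unnamed, CTSB turned to -0.079, -0.069 and -0.076 at 7 dpi, 30 dpi and 6 mpi and NPC1 to -0.060 at 30 dpi. With the mean of the intact libraries as baseline, CTSB turned to 0.013 at 14 dpi. By the same rule CTSL at 30 dpi (-0.12), LAMP2 at 6 mpi (-0.014) and NPC2 at 6 mpi (-0.057) turned in the split by GPNMB with those clusters unnamed. Other single ratios of that split stayed inside their interval in 80 cases and left it in 61, of which 23 came with thinning before the split. Of the single shares of nuclei 168 stayed inside and 112 left, 65 of them without thinning.

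The member median with no CPM added, 0.45, 0.61, 0.97 and 0.82 over the 4 times, became 0.40, 0.44 and 0.37 at 14 dpi, 30 dpi and 6 mpi without those clusters, and 0.60 at 6 mpi under median-of-ratios scaling. Members called numbered 1, 3 and 3 at 7 dpi, 30 dpi and 6 mpi under a 4-fold rule, 3 at 6 mpi with a pseudocount of 5, and 2, 1, 3 and 3 without the clusters. Pathway genes called higher numbered 4, 2, 8 and 13 under the 4-fold rule, 7, 13 and 22 from 14 dpi on for genes of at least 20 CPM, and 9 and 14 at 30 dpi and 6 mpi without the clusters. The pathway gene called lower at 7 dpi became 0 with a pseudocount of 5, the 4-fold rule or the mean baseline, and 1 was lower at 6 mpi under median-of-ratios scaling. Nuclei with any member were 89.7%, 87.6%, 88.0%, 92.5%, 88.6%, 97.3% and 93.5% without thinning, in the order of the libraries above. They were 50.9%, 64.5% and 72.1% from 14 dpi on with each nucleus named alone, and 55.4%, 49.8%, 56.6% and 60.5% after injury without the clusters. The split median was 1.29 (7 dpi) and 1.04 (30 dpi) after thinning, 1.31 (7 dpi) with at least 2 GPNMB UMIs, and 0.59, 0.74, 0.31 and 0.26 without the clusters. TCATGTG in place of CACGTG gave 0 members. Leaving the clusters out and the TCATGTG search were added after the data were seen. The causes were not tested.

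With 1 animal per time and 3 segments of 1 intact animal, the spread between animals is unknown. Low members limit the reading: CTSL had 33 to 333 UMIs per library, and CHIT1 had 3 to 47 in intact cord.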

Other observations

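Members were also measured in classes of few nuclei. In ependymal-like nuclei, which line the central canal, CTSL was at 16.7, 9.73 and 15.5 CPM in intact cervical, thoracic and lumbar cord, from 8, 7 and 23 UMIs, beside 4.02 to 5.87 in microglia/macrophage-like nuclei. GPNMB had 0 UMIs in these 63, 109 and 319 nuclei. Dividing microglia/macrophage-like nuclei, cluster 25, led by TOP2A and MKI67, held 12.9% of the class at 7 dpi. Their levels were 36.4 CPM of CTSD, 88.8 of LIPA and 27.8 of GPNMB, the last between 13.5 in cluster 7, which held most of the class in that library, and 66.0 in the whole class.

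T cell-like nuclei of the injured libraries held GPNMB at 106, 34.8 and 40.8 CPM at 7, 14 and 30 dpi, from 26, 14 and 22 UMIs. The 9 microglial reference genes lay at a median of 54.4%, 34.0% and 24.9% of their microglia/macrophage-like level there, where GPNMB was at 160.6%, 22.8% and 8.30% of its own. The reference genes reached 283% at 7 dpi, and the part of RNA from other cells in these values was not tested.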
